A study of Mus musculus with 11 samples.

Results

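The messenger RNAs of 7 genes, Fmr1, Fxr1, Fxr2, Cyfip1, Cyfip2, Nufip2 and Caprin1, were followed among the RNA fragments recovered with FMRP from mouse brain. They encode FMRP itself, its close relatives and proteins that meet it in complexes and RNA granules. The genes were chosen by symbol, and all 7 were among the 30986 rows of the fragment count table. The tissue was cerebellum, cortex or hippocampus of mice at postnatal day 13. No genotype, strain or drug treatment is named for any group, and all libraries share the same steps: ultraviolet crosslinking of ground tissue (3 doses of 400 mJ at 254 nm), immunoprecipitation of FMRP and small-RNA ligation. The groups held 2 cerebellum, 3 cortex and 5 hippocampus libraries. A further library is called cortex by its title and hippocampus by its tissue label. The series' design text counts 4 cortex libraries, but the conflict was not resolved here and that library was kept out of the regions.

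FMRP is an RNA-binding protein that slows translation of many neuronal mRNAs, and its loss causes Fragile X syndrome. FXR1P and FXR2P are its autosomal paralogues and can pair with it. CYFIP1 and CYFIP2 bind FMRP and are also core subunits of the WAVE regulatory complex, which drives branched actin polymerisation; CYFIP1 additionally binds the cap-binding protein eIF4E. NUFIP2 (82-FIP) is an FMRP-interacting protein, and CAPRIN1 is a neuronal RNA granule protein that binds G3BP. Here these genes are measured as RNA that came down with FMRP, not as proteins.

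Library totals ran from 11898 to 197382 counts. For the counts of hippocampus libraries 1 and 2, no difference beyond sampling noise was detected (ratio of chi-square to its degrees of freedom 1.03 over 1873 rows, p = 0.191), while the ratio was 1.51 to 22.1 for the other 13 pairs within a region. They were added up and counted as 1 sample, hippocampus 1+2, which left 9 samples. Nothing in the labels ties libraries to separate animals, and the spread that the p-values measure may therefore be technical. Cerebellar granule cell genes separated cerebellum from the other regions: these genes, led by Fat2 and Grm4, took 6399 to 7878 counts per 1000000 (CPM) in cerebellum against 260.4 to 882.4 in cortex and hippocampus together. Hippocampal neuron genes, led by Zbtb20 and Nr3c2, took 336.2 to 645.3 CPM in cortex and 1040 to 2647 in hippocampus, but at 1074 to 1184 CPM in cerebellum they did not separate hippocampus from cerebellum. Endothelial and choroid plexus markers also differed, at 125.5 to 168.1 CPM in cortex and 191.9 to 696.7 in hippocampus, and summed astrocyte markers took 1444 to 1592 CPM in cerebellum, 672.4 to 4715 in cortex and 2461 to 5388 in hippocampus. Neither an input library nor one without FMRP was analysed here, so the amount of an RNA and its binding cannot be told apart, and in tissue fewer cells of a type cannot be told apart from less RNA per cell. Hippocampus 3, hippocampus 4 and cortex 3 stood apart from the other 6 samples. In them 12.2 to 12.6% of counts fell on names of the form Gm plus a number, which mark predicted genes, against 3.1 to 7.5% elsewhere.

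Because short fragments can be assigned to the wrong copy of a gene pair, the reference transcripts of the 7 genes were compared first. In GENCODE M21 the genes lie on 5 chromosomes, with Fmr1 at chrX:68678541-68717963, Fxr1 at chr3:34019943-34070322, Fxr2 at chr11:69632990-69653297 and Cyfip1 at chr7:55841745-55932602, all on the plus strand. Nufip2 lies at chr11:77686155-77741921 on the plus strand, and Cyfip2 at chr11:46193850-46312859 and Caprin1 at chr2:103762941-103797649 on the minus strand. No stretch of 25 bases was shared between any pair of the 7 transcripts. The longest exact stretch shared by the coding sequences of Cyfip1 and Cyfip2 was 24 bases, in exon 11 of both genes, and it is printed in capitals within 30 bases of flank on each side (5′ to 3′, GENCODE M21 on GRCm38, the build also called mm10). Cyfip1 lies there on the plus strand at chr7:55887823-55887906, and Cyfip2 on the minus strand at chr11:46270585-46270668.
Cyfip1: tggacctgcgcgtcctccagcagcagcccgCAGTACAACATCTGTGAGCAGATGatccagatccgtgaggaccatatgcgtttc
Cyfip2: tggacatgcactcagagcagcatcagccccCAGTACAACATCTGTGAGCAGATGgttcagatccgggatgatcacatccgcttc
The shared stretch was shorter in the FMRP family, at 14 bases for Fmr1 with Fxr1, 14 for Fmr1 with Fxr2 and 20 for Fxr1 with Fxr2. Outside the family, 5.75% of the 25-base stretches of Fxr1 recurred in Gm17795, so part of its count is uncertain; for the other 6 transcripts this share was 0 to 0.31%. Dnajc19 overlaps Fxr1, Nipa2 overlaps Cyfip1, Fndc9 overlaps Cyfip2 and Cryba1 overlaps Nufip2, each on the opposite strand. Their own rows held 5, 33, 3 and 1 counts over the 9 samples, and without strand information fragments in the overlaps cannot be told apart.

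FMRP is known for binding a guanine-rich stretch of its own mRNA, which encodes the arginine- and glycine-rich (RGG) box. The coding sequences were therefore searched for AGGA and TGGA, short motifs reported for FMRP, on the sense strand only, with overlapping matches counted. Fmr1 held 23.2 of them per kb of coding sequence (percentile 90.2 of 21875 mouse coding sequences, whose median was 15.8). Fxr1 held 14.8 per kb, Fxr2 18.3, Cyfip1 17.3, Cyfip2 16.8, Nufip2 19.3 and Caprin1 17.9. By the density of G-quartet patterns (4 runs of GG with 1 to 7 bases between them) Fmr1 did not rank first: Fxr2 held 5.93 per kb (percentile 92.2) and Fmr1 4.23 (percentile 81.7), against a median of 1.97. ACTT was searched in the same way. Fmr1 held 2.64 of them per kb (percentile 34.9), against a median of 3.35, and the other 6 genes held 0.99 to 4.24. The densest 90-base window of Fmr1 held 12 AGGA or TGGA matches, at chrX:68712314-68712403 on the plus strand in exon 15. That number is reached or exceeded by 0.609% of coding sequences. In each of the other 6 genes the densest window held 5 matches, which 45.4% of coding sequences reach or exceed. The windows of Fmr1 and of Cyfip2 (chr11:46200701-46200790, minus strand, exon 29) are shown to set the gene of the family with the densest cluster beside the one with the most fragments; capitals mark the matches.
Fmr1: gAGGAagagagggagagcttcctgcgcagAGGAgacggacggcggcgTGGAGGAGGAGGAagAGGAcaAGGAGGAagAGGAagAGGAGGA
Cyfip2: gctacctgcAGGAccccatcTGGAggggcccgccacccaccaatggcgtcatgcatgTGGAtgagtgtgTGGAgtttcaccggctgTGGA
The deposited table gives no positions of fragments, so a match is a description of the sequence and not a site.

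**Figure D1:**
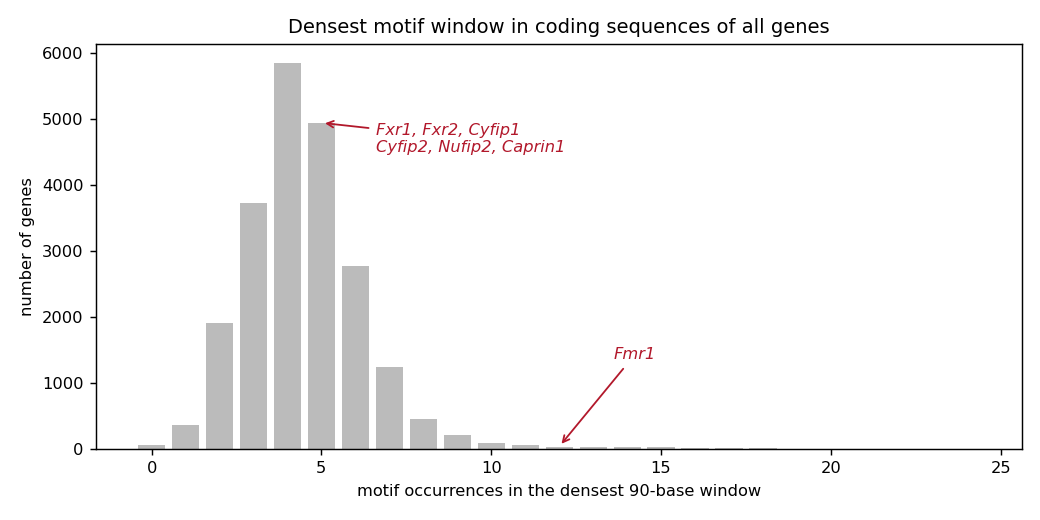
Number of mouse genes (y axis) by the number of AGGA or TGGA matches in the densest 90-base window of their coding sequence (x axis), for 21829 genes with at least that much coding sequence. Fmr1 stands at 12 and the other 6 genes at 5.

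Cyfip2 carried 52 to 72.4% of the fragments of the 7 genes in 8 of the 9 samples. The exception was hippocampus 3, with 24.6% (17 of 69 counts), where Nufip2 had more (19 counts). It had 463 counts over the 9 samples and ranked 92 among all rows by total count, while the other 6 genes had 23 to 81 counts each. Its level was 608 and 654 CPM in cerebellum, 1335, 1273 and 672 CPM in cortex, and 783, 145, 547 and 1161 CPM in hippocampus 1+2, 3, 4 and 5. Both cerebellum samples lay just under the lowest cortex sample, and the hippocampus samples spread on both sides of cerebellum, with hippocampus 3 far below the rest. By rank among all rows Cyfip2 stood between 55 and 162 in the other 8 samples and at 824 in hippocampus 3. Per kb of coding sequence its mean level over the 9 samples was 212 CPM, at percentile 99 of 18940 genes, whose median was 13.3.

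The region means of Cyfip2 were 631 ± 32.5 CPM for cerebellum (SD, n = 2), 1093 ± 366 for cortex (n = 3) and 659 ± 426 for hippocampus (n = 4). Without hippocampus 3 the last was 830 CPM. With cortex and hippocampus averaged as forebrain, cerebellum differed from them by a log2 fold change of 0.21 (SE 0.52, 95% interval -0.81 to 1.23, adjusted p = 0.933, edgeR). Cortex against hippocampus gave 0.46 (SE 0.44, interval -0.4 to 1.31, adjusted p = 0.999, edgeR). Against cortex alone cerebellum stood at -0.01 (interval -1.29 to 1.26), and against hippocampus alone at 0.44 (-0.59 to 1.47). None of these passed the threshold, and the intervals leave room for a change of either sign. The sign for cerebellum against forebrain turned to -0.28 without the block for the title code, to -0.54 without cerebellum 2, to -0.53 without hippocampus 3, and to -0.57 without hippocampus 3, hippocampus 4 and cortex 3 together. Without cerebellum 1 it was 1.6. The set of hippocampus 3, hippocampus 4 and cortex 3 was picked by its low share of known FMRP targets. That share was taken from these same data, so this omission was not independent of the levels compared. A numeric code in the titles links cerebellum 1 with cortex 1 and hippocampus 1+2, and within that set the log2 ratio of CPM was -0.75. It links cerebellum 2 with hippocampus 3 alone, and there the ratio was 2.14. The ratio of cortex to hippocampus was 0.78 in the first set and 0.22 among cortex 2, cortex 3, hippocampus 4 and hippocampus 5, which have the remaining code. In CPM the cerebellum samples lay apart from the cortex samples, while hippocampus overlapped both.

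**Figure D2:**
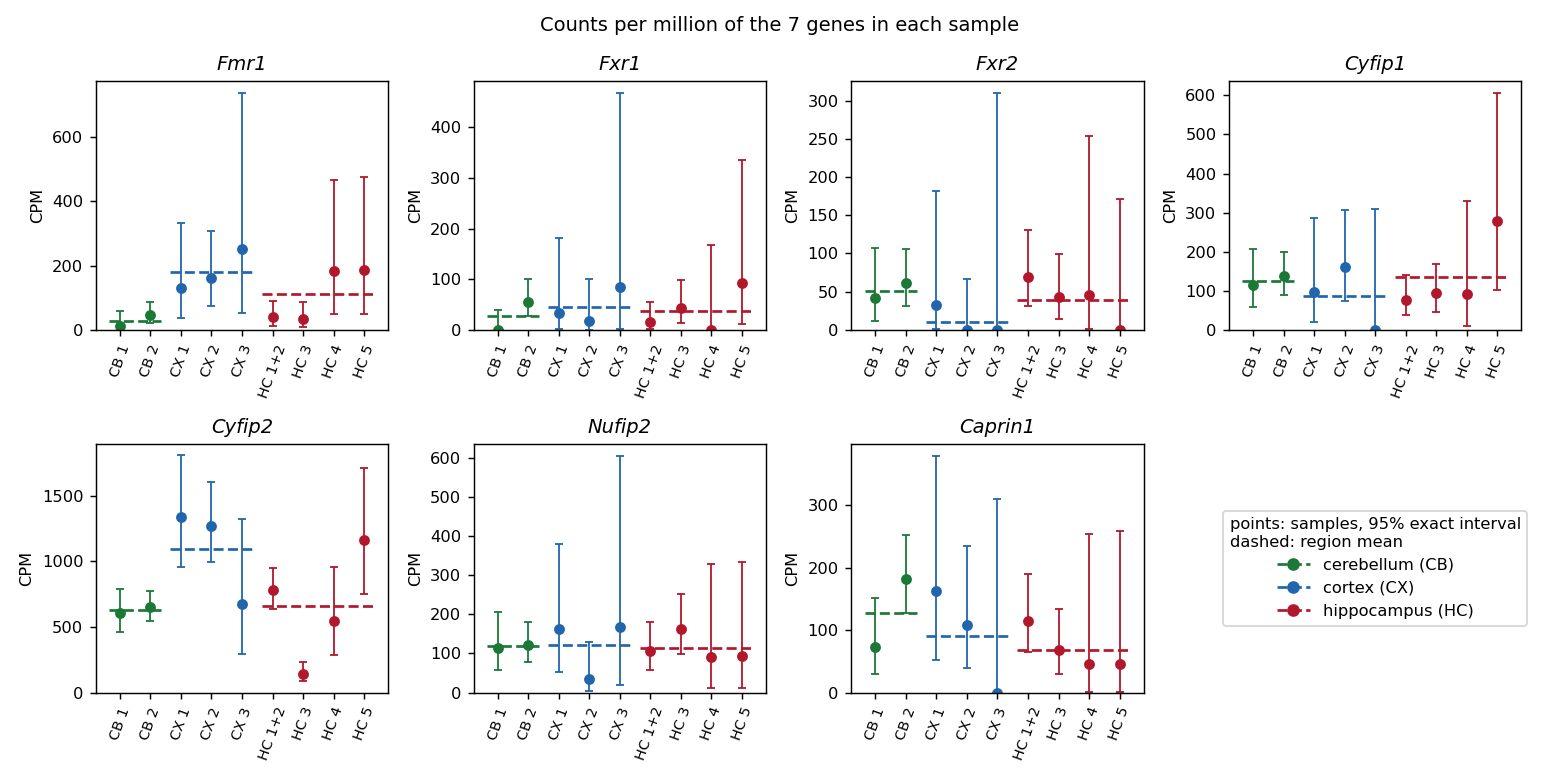
CPM of each gene (y axis, own scale per panel) in each of the 9 samples (x axis; CB cerebellum, CX cortex, HC hippocampus), with exact 95% intervals of counting error and dashed region means. Cyfip2 lies between 145 and 1335 CPM, while no other gene exceeds 279 CPM.

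Cyfip1, the paralogue of equal coding length (3759 bases in both), was far lower. It had 11 and 27 counts in cerebellum, 3, 9 and 0 in cortex, and 10, 11, 2 and 6 in hippocampus 1+2, 3, 4 and 5. These correspond to 115 and 137 CPM in cerebellum, 97.7, 161 and 0 CPM in cortex, and 76.7, 93.8, 91.1 and 279 CPM in hippocampus. All 3 regions overlapped, and the 0 in cortex 3 allows up to 252 CPM. Per kb of coding sequence Cyfip1 averaged 31.1 CPM against the 212 CPM of Cyfip2. Within each library, which removes any dependence on library totals, Cyfip2 made up 84.1 and 82.7% of the counts on both genes in cerebellum, 93.2, 88.8 and 100% in cortex, and 91.1, 60.7, 85.7 and 80.6% in hippocampus. The lowest share, in hippocampus 3, was 17 of 28 counts (95% Wilson interval 42.4 to 76.4%, counting error only). In hippocampus 3 it was Cyfip2 that was low, since its Cyfip1 level of 93.8 CPM lay inside the range of the other samples. The share of predicted-gene counts was also high there, and its part in the result was not tested. The regional means of the Cyfip2 share were 83.4 ± 1% (SD, n = 2), 94 ± 5.6% (SD, n = 3) and 79.5 ± 13.3% (SD, n = 4) in cerebellum, cortex and hippocampus.

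**Figure D3:**
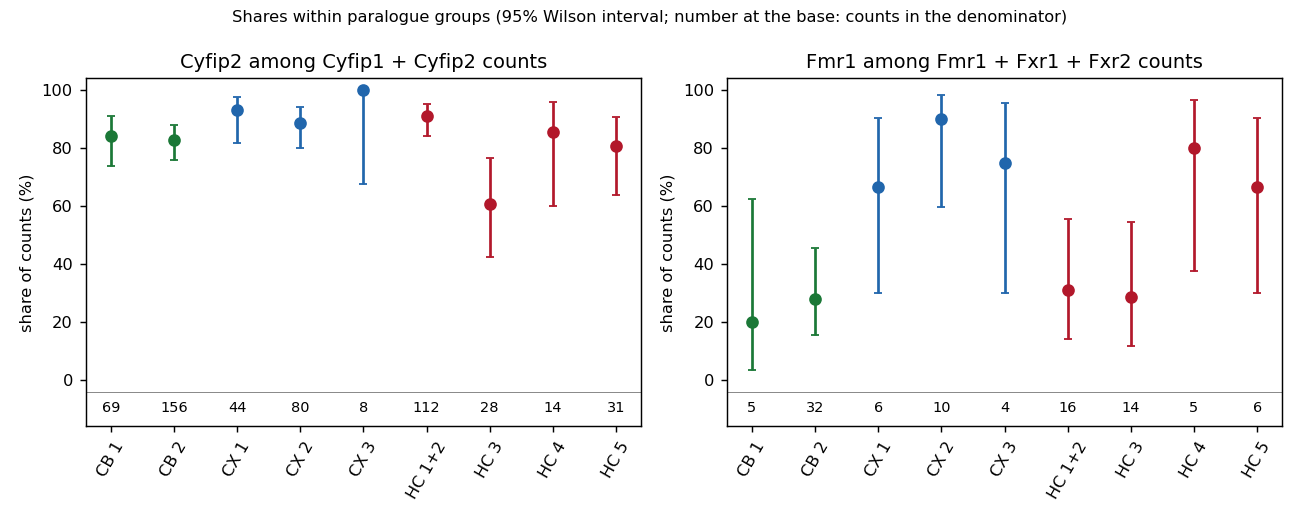
Left, share of Cyfip2 in the counts on Cyfip1 and Cyfip2; right, share of Fmr1 in the counts on Fmr1, Fxr1 and Fxr2 (y axes, percent), in each sample, with 95% Wilson intervals and the number of counts at the base. Cyfip2 is the larger part in all 9 samples, at 60.7% or more, while Fmr1 varies from 20 to 90% on 4 to 32 counts.

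Fmr1, the mRNA of FMRP itself, was detected in each sample but on few counts: 1 and 9 in cerebellum, 4, 9 and 3 in cortex, and 5, 4, 4 and 4 in hippocampus 1+2, 3, 4 and 5. Its level was 10.5 and 45.6 CPM in cerebellum, 130, 161 and 252 CPM in cortex, and 38.4, 34.1, 182 and 186 CPM in hippocampus. Both cerebellum samples lay below all 3 cortex samples. The hippocampus samples fell into a low and a high pair, the low pair at the level of cerebellum and the high pair at that of cortex. Averages were 28 ± 24.8 CPM for cerebellum (SD, n = 2), 181 ± 63.4 for cortex (n = 3) and 110 ± 85.4 for hippocampus (n = 4). Per kb of coding sequence Fmr1 averaged 61.1 CPM over the 9 samples, second of the 7 genes after Cyfip2. It was also second in cortex (95.7) and in hippocampus (58.2, beside 53.2 for Nufip2). In cerebellum it stood at 14.8, above only Fxr1 at 13.7. Per kb of the longest transcript Fmr1 was the lowest of the 7 genes in cerebellum, at 6.36 CPM against 9.24 for Fxr1. The order by coding length rests on 43 counts of Fmr1 in all and on averages in which shallow and deep samples weigh alike. Summed over the 9 samples, Nufip2 had 81 counts and Caprin1 79, on coding sequences of 2130 and 2121 bases against 1893 for Fmr1. By summed counts per kb Fmr1 therefore lay below both.

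No regional change of Fmr1 passed the test. The log2 fold change was -1.2 for cerebellum against forebrain (SE 1.13, 95% interval -3.42 to 1.01, adjusted p = 0.706, edgeR) and -1.47 against cortex alone (SE 1.33, interval -4.08 to 1.14, adjusted p = 0.753, edgeR). Leaving out cerebellum 1 or cerebellum 2 moved the value against cortex to -0.37 or -2.52, and leaving out cortex 1 moved it to -0.5. Against hippocampus it was -0.94 (interval -3.1 to 1.22; -0.03 without cerebellum 1 and -2.14 without cerebellum 2), and cortex against hippocampus gave 0.53 (interval -1.29 to 2.36). Fmr1 entered the test only because 3 shallow samples, cortex 3, hippocampus 4 and hippocampus 5, exceed the filter's minimum of 179.3 CPM with 3, 4 and 4 counts. Levels also moved with the first letter of the sample title, whose meaning the labels do not give: the 4 samples of p titles, at totals of 11898 to 55784, had 161 to 252 CPM, and the 5 samples of s titles, at totals of 30721 to 197382, had 10.5 to 130 CPM. Both cerebellum samples have s titles, and the part of the title or of depth in the result was not tested. Within the s titles, cerebellum 1 stood at a log2 ratio of -2.32 to the forebrain samples of its code, cerebellum 2 at 0.33 to hippocampus 3, and cortex 1 at 1.8 to hippocampus 1+2. Within the p titles cortex stood at 0.11 to hippocampus.

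The paralogues Fxr1 and Fxr2 were near the limit of detection. Fxr1 had 0 and 11 counts in cerebellum, 1 in each cortex sample, and 2, 5, 0 and 2 in hippocampus 1+2, 3, 4 and 5, or 0 to 92.9 CPM. Fxr2 had 4 and 12 counts in cerebellum, 1, 0 and 0 in cortex, and 9, 5, 1 and 0 in hippocampus, or 0 to 69.1 CPM. The zeros of Fxr2 allow up to 53.8, 252 and 139 CPM in cortex 2, cortex 3 and hippocampus 5, so neither absence nor a lower level could be read from them at this depth. Both cerebellum samples, at 41.9 and 60.8 CPM, lay above the cortex samples at 0 to 32.6 CPM. Per kb of coding sequence Fxr1 and Fxr2 averaged 18.7 and 16.1 CPM, the lowest of the 7 genes, at percentiles 61.6 and 56.4 of all genes. Per kb of the longest transcript they averaged 12.6 and 11 CPM, at percentiles 75 and 70.4. Fmr1 made up 20 and 28.1% of the counts on the 3 family genes in cerebellum, 66.7, 90 and 75% in cortex, and 31.2, 28.6, 80 and 66.7% in hippocampus. This share was lower in both cerebellum samples than in any other, with 95% Wilson intervals of 3.6 to 62.4% (1 of 5 counts) and 15.6 to 45.4% (9 of 32 counts) that reach into the range of the hippocampus samples.

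Among the granule partners, Nufip2 had the closest regional means of the 7 genes. It stood at 115 and 122 CPM in cerebellum, 163, 35.9 and 168 CPM in cortex, and 107, 162, 91.1 and 92.9 CPM in hippocampus, on 2 to 24 counts. Its regional means were 118 ± 4.49 (SD, n = 2), 122 ± 74.9 (SD, n = 3) and 113 ± 33.2 CPM (SD, n = 4). Hippocampus 3, where Cyfip2 was lowest, was not low in Nufip2. Caprin1 stood at 73.3 and 182 CPM in cerebellum, 163, 108 and 0 CPM in cortex, and 115, 68.2, 45.6 and 46.4 CPM in hippocampus, on 0 to 36 counts. Its cerebellum samples differed from each other by more than the regional means of 128, 90.1 and 68.8 CPM did. Per kb of coding sequence Nufip2 averaged 55.1 and Caprin1 42 CPM, above Cyfip1; per kb of the longest transcript, with untranslated ends, the values were 22.8 and 14.4 CPM against 18.1 for Cyfip1, so the place of Caprin1 in this order depends on the length used.

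Of the 7 genes, 2 passed the filter on low counts (Cyfip2 and Fmr1), and 0 were called in any of the 4 comparisons (edgeR; 0 at an unadjusted p under 0.05, and 0 by DESeq2). Over all 1720 tested rows, 7.67% were called for cerebellum against forebrain, 4.59% for cerebellum against cortex, 6.4% for cerebellum against hippocampus and 0% for cortex against hippocampus (1 row by DESeq2). At an unadjusted p under 0.05 stood 310, 248, 291 and 68 rows in the same order. With so few members tested, a count of 0 does not stand apart from that background. To give the other 5 genes a value, the fit was repeated on the 7570 rows with at least 20 counts in total, a choice made after seeing the data. There 0.423, 0.119, 0.542 and 0% of rows were called in the same comparisons and 0 of the 7 genes. In that fit the median over all rows was 0.10 for cerebellum against forebrain and -0.20 for cortex against hippocampus, and the gene values stand beside these. For cerebellum against forebrain the log2 fold changes were 0.62 for Cyfip1 (95% interval -0.76 to 2.01), 0.67 for Fxr2 (-1.31 to 2.65), -0.37 for Fxr1 (-2.61 to 1.86), -0.21 for Nufip2 (-1.55 to 1.13) and 0.07 for Caprin1 (-1.34 to 1.49). The widest intervals belonged to Fxr2 and Fxr1 in the comparisons with cortex. For cortex against hippocampus they ran from -4.57 to 1.4 for Fxr2 and from -2.45 to 2.91 for Fxr1.

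In CPM, groups without overlap occurred only between cerebellum and cortex, with Cyfip2 and Fmr1 lower and Fxr2 higher in cerebellum. Such separation of these samples occurred in 29% of the tested rows and in 25.6% of the rows with at least 20 counts, so the 3 of 7 genes do not stand apart from the background. That of Fxr2 rests on 1, 0 and 0 counts in cortex, where the zeros allow up to 53.8 and 252 CPM. The Cyfip2 gap lay between 654 CPM in cerebellum 2 and 672 CPM in cortex 3, the latter on 8 counts. In the other comparisons 0 of the 7 genes separated, where the same shares were 13.6 and 6.66% for cerebellum against forebrain, 3.9 and 5.75% for cortex against hippocampus, and 24.2 and 15.9% for cerebellum against hippocampus. With TMM scaling the Cyfip2 difference was -0.01, and it was 0.04 on library totals, both with the title code as a block. Without the block it was -0.57 (SE 0.56, adjusted p = 0.7, edgeR), the direction seen in CPM.

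**Figure D4:**
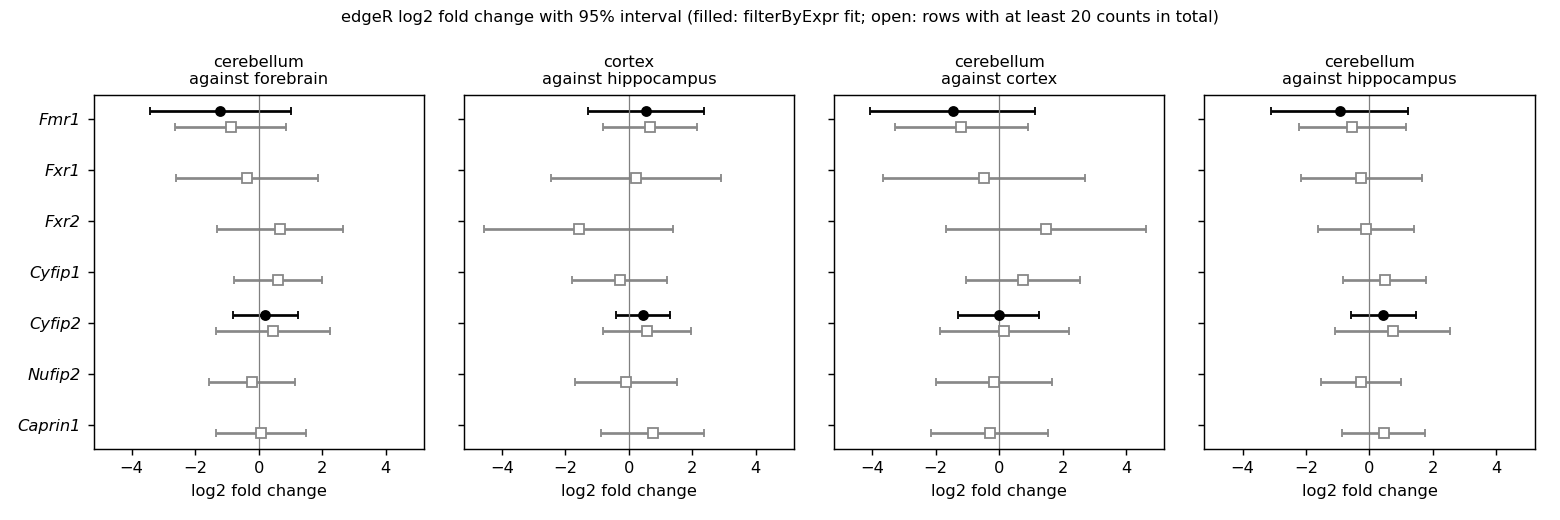
Log2 fold change (x axis) with 95% interval for each gene (y axis) in the 4 comparisons; filled points come from the fit of 1720 rows, open squares from the fit of 7570 rows with at least 20 counts in total. All intervals include 0.

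RNAs that encode other proteins of these complexes were read from lists, chosen with earlier results of these data known. Of 12 genes of the WAVE complex and cap-binding machinery, 5 were tested, and 0 were called in any comparison (edgeR; 0 at an unadjusted p under 0.05, and 0 by DESeq2). Over all 1720 tested rows, 7.67, 4.59 and 6.4% were called for cerebellum against forebrain, cortex and hippocampus, and 0% for cortex against hippocampus. A count of 0 of 5 does not stand apart from that background. The median log2 fold change of the 5 genes for cerebellum against forebrain was -0.48, with a range from -0.53 to -0.06, beside 0.002 over all tested rows. Nckap1, the direct partner of CYFIP proteins in the WAVE complex, was the member with the highest level, with averages of 640 ± 102 CPM for cerebellum (SD, n = 2), 1016 ± 979 for cortex (n = 3) and 947 ± 789 for hippocampus (n = 4). Abi2, an adaptor subunit, followed with 178 ± 14, 371 ± 256 and 284 ± 165 CPM. Their differences between cerebellum and forebrain were -0.2 (SE 0.52) and -0.53 (SE 0.55). Wasf2 and Brk1, other subunits of the complex, had 17 and 15 counts over the 9 samples and were not tested.

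Of 23 further granule and ribonucleoprotein partners, 6 were tested and 0 were called (edgeR; 0 by DESeq2). At an unadjusted p under 0.05 stood 1 gene in each comparison with cerebellum, Purb, a single-stranded nucleic acid binding protein of RNA transport granules, with 1.36 for cerebellum against forebrain (SE 0.56, adjusted p = 0.134, edgeR). That 1 of 6 does not stand apart from the 310, 248 and 291 of 1720 rows at such a p for cerebellum against forebrain, cortex and hippocampus. Nor does the 0 of 6 called stand apart from the 7.67, 4.59 and 6.4% of rows called there and the 0% for cortex against hippocampus. The list's median for cerebellum against forebrain was 0.2, ranging from -0.37 to 1.36. Pum2, a Pumilio repressor, averaged 324 ± 28.8 CPM for cerebellum, 325 ± 180 for cortex and 290 ± 166 for hippocampus. Ubap2l, a stress granule protein, averaged 207 ± 63.2, 275 ± 74.2 and 177 ± 54.4 CPM in the same order. G3bp1, the stress granule nucleator bound by CAPRIN1, had 19 counts in all. With the looser filter 9 genes of the WAVE and cap list and 21 of the granule list were tested, and 0 were called. In that fit 0.423, 0.119 and 0.542% of 7570 rows were called for cerebellum against forebrain, cortex and hippocampus. For cortex against hippocampus the share was 0%, so the absence of calls does not stand apart from the background.

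The genes nearest in pattern to Cyfip2 over the 9 samples were Mycbp2, a large ubiquitin ligase (Pearson r = 0.982 of log2 CPM), Tcf20, a transcriptional coregulator (0.936), and Nf1, the Ras GTPase-activating protein neurofibromin (0.932), out of 1719 compared. Mycbp2 and Nf1 had their lowest levels in hippocampus 3, at 256 and 205 CPM, as Cyfip2 did, and their highest in cortex 2 and hippocampus 5, at 2062 and 2090 CPM. For Fmr1 the nearest were the noncoding RNA gene Gas5 (r = 0.942), the olfactory receptor gene Olfr1480 (0.937) and Rasgrf2, a Ras and Rac exchange factor (0.921). Gas5 and Rasgrf2 were lowest in cerebellum 1, at 10.5 and 21 CPM. Olfr1480 had 0 counts in cerebellum 1, hippocampus 1+2 and hippocampus 3. Like Fmr1, both Gas5 and Olfr1480 also moved with the first letter of the sample title. Samples of p titles had 305 to 604 CPM of Gas5 and 89.6 to 252 CPM of Olfr1480. Samples of s titles had 10.5 to 97.7 and 0 to 32.6 CPM, and the part of the title was not tested. All points share their library's depth and composition, so these correlations describe the samples and carry no test.

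**Figure D5:**
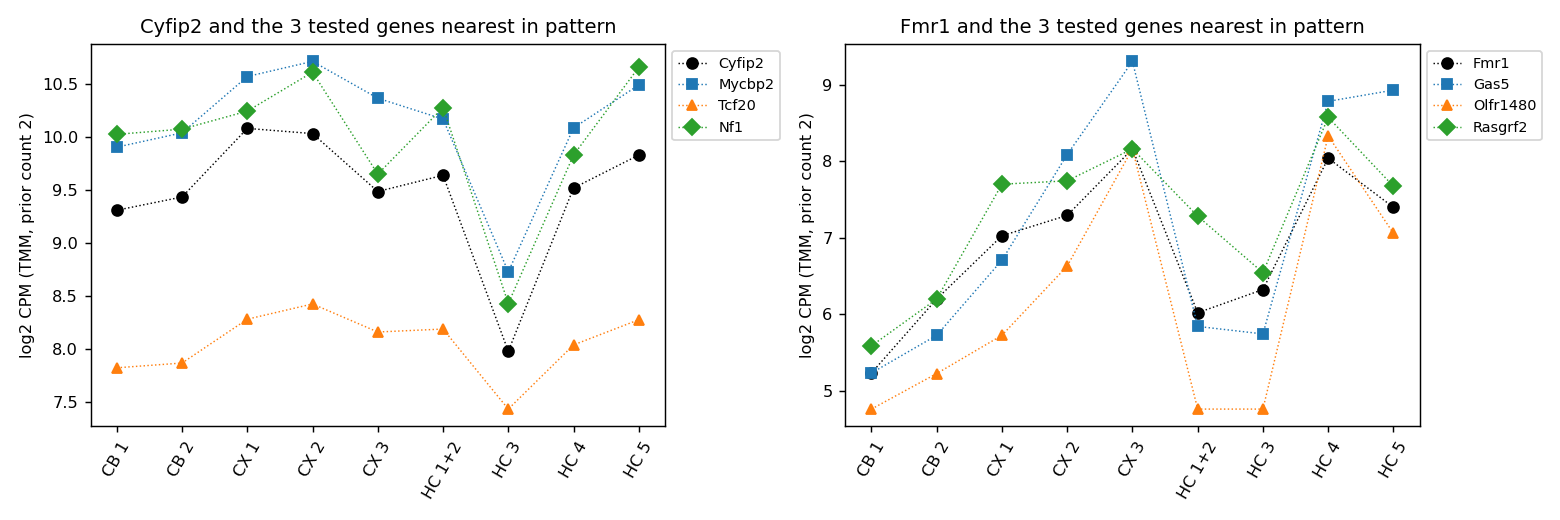
Log2 CPM (y axis; TMM factors, prior count 2) of Cyfip2 (left) and Fmr1 (right) with their 3 nearest genes in the 9 samples (x axis); dotted lines only guide the eye. Cyfip2, Mycbp2, Tcf20 and Nf1 are lowest in hippocampus 3. Fmr1, Gas5 and Olfr1480 are low in cerebellum and also in hippocampus 1+2 and hippocampus 3, and Rasgrf2 is low in cerebellum and hippocampus 3. Fmr1, Gas5 and Olfr1480 are higher in every sample of a p title (cortex 2, cortex 3, hippocampus 4 and hippocampus 5) than in any other.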

How the data were processed

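RNA bound by FMRP was sequenced from brain regions of mice, and for its 11 libraries the authors deposited a table of whole-number fragment counts by gene symbol. Bowtie 0.12.7, Picard and mm10 appear in the submitters' processing notes. Which program and annotation gave the counts, and whether strand was used or duplicates were removed, is not given in the sources used here. CPM are counts per 1000000 of the library total over all rows. A count of 0 was taken to allow up to 3 counts. Intervals are 95% Clopper-Pearson (CPM) or Wilson (shares) and cover counting error only, since PCR copies are not independent molecules.

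Tests used edgeR 4.0.16 (R 4.3.3, quasi-likelihood) on 9 samples (hippocampus 1 and 2 summed) with TMM factors, filterByExpr by region, the numeric title code as a block, 4 residual degrees of freedom and Benjamini-Hochberg adjusted p under 0.05. The SE is the absolute log2 fold change over the square root of F, and the 95% interval uses edgeR's total degrees of freedom; both are approximate. Ratios within title codes add 0.5 counts. Deviations from region means correlated at a median r of 0.13 over 8 pairs of samples of the same code and -0.05 over 18 other pairs. DESeq2 1.42.0, other scalings, filters and sample sets were alternatives.

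Coding sequences are those of the GENCODE M21 basic transcript with the longest coding part, without the stop codon; the 7 genes all matched by symbol. The 7 genes are all named; from the partner lists, genes past the threshold and the 2 tested genes of highest mean CPM are named, and for each tested gene of the 7 the 3 nearest by Pearson r. Wasf2, Brk1, G3bp1 and Purb were named after their values were seen. The members and lists were chosen with earlier results of these data known.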

Additional observations from a re-analysis of the deposited data

Results flagged for a closer look

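Cyfip1 in hippocampus 5 stood at 279 CPM on 6 counts (95% interval 102 to 606 CPM), apart from 76.7 to 93.8 CPM in the other 3 hippocampus samples. The intervals of hippocampus 1+2, 3 and 4 reach up to 141, 168 and 329 CPM, so counting error alone leaves all 3 overlapping with it. The gap of hippocampus 5 to the next sample exceeded Dixon's limit for 4 samples (0.829), which takes no account of counting error. In all 10 such checks were made, and chance gives about 1 in 20. Without hippocampus 5 the regional mean was 87.2 CPM in place of 135 CPM. The library with conflicting region labels, of 30344 counts, was in no comparison and held 3 of the genes above the 3 counts that a count of 0 allows. Cyfip2 had 560 CPM (17 counts), Fmr1 264 CPM (8 counts) and Nufip2 231 CPM (7 counts). Its Cyfip2 share of the Cyfip counts was 85% (95% Wilson interval 64 to 94.8%). Its Fmr1 and Nufip2 levels were higher than in any of the 9 samples.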

How the results depend on the processing

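Under all 17 other settings 0 of the genes tested were called in any of the 4 comparisons, and the lowest adjusted p was 0.261 (edgeR). Most of these settings tested 1 to 5 of the 7 genes. All 7 were tested only without a filter and with at least 20 counts in total. Without a filter 1 of 30818 rows was called for cerebellum against forebrain, and 0 in the other comparisons. With at least 20 counts, 32, 9 and 41 of 7570 rows were called for cerebellum against forebrain, cortex and hippocampus. Cortex against hippocampus had at most 3 rows called in any setting. With calls this rare, 0 among the 7 genes does not stand apart from the background. Fmr1 got no adjusted p by DESeq2 for cerebellum against cortex. Of 144 alternative fold changes 126 kept their sign and 18 reversed; these are changes of sign in values that were never called. Without the replicate block for the title code Cyfip2 stood at -0.28 for cerebellum against forebrain, and Fmr1 at -1.807 against forebrain, -2.144 against cortex and -1.47 against hippocampus. Without hippocampus 3, hippocampus 4 and cortex 3, Cyfip2 in cerebellum stood at -0.567 against forebrain and -0.393 against hippocampus. Fmr1 there stood at -2.353 and -2.061. Cerebellum against cortex for Cyfip2 was 0.038 on library totals, 0.342 without a filter and 0.16 with at least 20 counts in total. Without a filter cerebellum against hippocampus turned to 0.102 for Fxr1 and 0.064 for Fxr2, and cerebellum against cortex to 0.033 for Nufip2; the cause was not tested. Leaving out each sample in turn moved Cyfip2 between -0.535 and 1.6 for cerebellum against forebrain, between -0.671 and 1.49 against cortex and between -0.404 and 1.71 against hippocampus, and between 0.205 and 0.713 for cortex against hippocampus. Fmr1 ran from -2.327 to -0.203 for cerebellum against forebrain, from -2.517 to -0.372 against cortex, from -2.138 to -0.034 against hippocampus, and from -0.074 to 1.032 for cortex against hippocampus in the 7 fits that tested it (it failed the filter without hippocampus 1+2 or hippocampus 3). With 1 cerebellum sample left, its spread is taken from the other regions. Depth limits 6 of the 7 genes, which had at most 36 counts in a sample. Over all rows tested, the calls for cerebellum against forebrain numbered 132; this became 54 on library totals, which moved the median of all rows from 0.002 to 0.124, 1 without a filter, 32 with at least 20 counts in total, 87 with DESeq2, 215 without hippocampus 3, hippocampus 4 and cortex 3, and 2 to 176 with single samples left out (2 without cerebellum 1, 15 without cortex 1 and 17 without cerebellum 2). The replicate block itself moved it from 156 to 132.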
